A study of Mus musculus with 15 samples.

Results

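The eye field transcription factor genes described here are Rax, Six3, Six6, Lhx2 and Pax6, which make up 5 of the 23244 gene entries of the expression table. They were chosen by name and not by a measured value, though with earlier results of these data known. Each symbol stood for 1 entry. All 5 were among the 13845 entries that were tested, the entries that reached 1 CPM in 3 or more libraries. CPM, the unit of all levels below, is the deposited normalised read count, scaled by its authors to library size.

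The eye field is the part of the anterior neural plate from which both eyes form, and it is marked by the overlapping expression of a small network of transcription factors. As the optic vesicle folds into a cup, its inner layer becomes neural retina (NR) and its outer layer becomes retinal pigmented epithelium (RPE). Neural retina progenitors keep Rax, Six3, Six6, Lhx2 and Pax6 in use, whereas RPE cells depend on Mitf and Otx2. All of the listed genes code for homeodomain proteins. Rax (also called Rx) is required for the optic vesicle to form, Six3 represses Wnt genes in the anterior forebrain, and Six6 is its close relative in retina and pituitary. Lhx2, a LIM-homeodomain factor, is needed for the vesicle to become a cup. Pax6, which carries a paired domain as well, acts in retina, lens and forebrain.

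The samples were mouse SFEBq tissue, made by reaggregating 3000 EB5 Rx::GFP+/- embryonic stem cells per well in low-adhesion plates with 4% Matrigel, so that a GFP-marked optic epithelium forms at the surface. Each of the 5 groups held 3 libraries. Day 10 Rx::GFP+ libraries came from GFP-marked epithelium excised on day 10. The Day 12 +Fgf and Day 15 +Fgf explants were kept in retinal maturation medium with 5 ng/ml bFgf and 10% FBS, and the Day 12 +Wnt and Day 15 +Wnt explants in retinal maturation medium with CHIR99201 in place of these, a GSK3 inhibitor that activates Wnt/β-catenin signalling, first at 3 μM (24 h) and later at 1 μM. All samples derive from 1 reporter line, whose GFP reports Rax expression, and explants were cut out by that signal, so a Rax level at Day 10 was part of how the tissue was chosen. No library from Day 12 or Day 15 tissue without stimulation was analysed here, so time in culture and stimulation cannot be told apart in a comparison with Day 10. A difference between +Fgf and +Wnt explants can come from bFgf, serum or CHIR99201, which cannot be told apart either. The stem cells of all groups had been kept in 2i medium, which holds the same inhibitor.

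Between 12556998 and 16175450 reads per library lay on genes, and 1 read was worth between 0.0620 and 0.0764 CPM. The 5 genes held between 16 and 9787 reads in a library, and 23 of the 25 combinations of gene and group had at least 100 reads in each library. The neural retina progenitor markers Fgf15, Sfrp2, Hes5, Ccnd1 and Sox2 summed to between 2550 and 2828 CPM in Day 15 +Fgf and between 218.3 and 258.4 CPM in Day 15 +Wnt. The 10 RPE markers summed to between 294 and 382.4 CPM in Day 15 +Fgf and between 7056 and 9054 CPM in Day 15 +Wnt, where 8 of the 10 exceeded 1 CPM in each library and Rpe65, a gene of the mature visual cycle, was listed at 0. Markers of other forebrain tissue were present in all groups, with sums between 93.21 and 192.4 CPM in the Day 10 and +Fgf libraries, between 213 and 259.4 CPM in Day 12 +Wnt and between 372.4 and 427.8 CPM in Day 15 +Wnt. All libraries were bulk tissue, so fewer cells expressing a gene and less RNA per cell cannot be told apart in what follows.

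**Figure D1:**
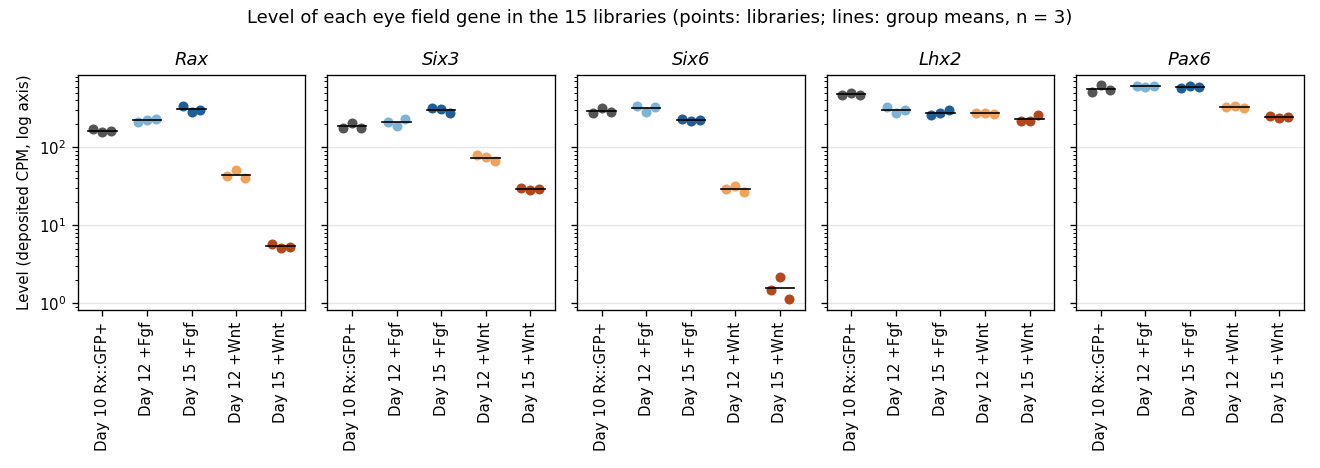
Level of each eye field gene in deposited CPM (log axis) in the 15 libraries, by group. Points are libraries and lines are means of 3. Rax, Six3 and Six6 step down from Day 10 through Day 12 +Wnt to Day 15 +Wnt, whereas Lhx2 and Pax6 stay above 200 CPM in all libraries.

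Rax was higher in each +Fgf group and lower in each +Wnt group than at Day 10. In the Day 10 Rx::GFP+ libraries it lay at 173.5, 156.5 and 162.6 CPM (164.2 ± 8.64, SD, n = 3). In Day 12 +Fgf it lay at 208.6, 225.6 and 230.3 CPM, and in Day 15 +Fgf at 342.7, 286.6 and 304.8 CPM. The Day 12 +Wnt libraries lay at 42.96, 51.09 and 39.92 CPM, and the Day 15 +Wnt libraries at 5.831, 5.146 and 5.261 CPM. No library of any group overlapped with one of another group. In order of level the groups ran Day 15 +Fgf, Day 12 +Fgf, Day 10, Day 12 +Wnt and Day 15 +Wnt, and all 4 neighbouring pairs in that order differed in limma (adjusted p from 2.24e-13 to 0.000373). The Day 15 +Wnt mean of 5.41 CPM was 3.30% of the Day 10 mean.

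Six3 followed the same order of groups. Its levels were 178.6, 202.4 and 176 CPM at Day 10, and 211.9, 187.2 and 230.2 CPM in Day 12 +Fgf. These libraries overlapped, and the pair did not pass the test (log2 difference 0.17, 95% interval 0.000218 to 0.347, limma adjusted p = 0.0827). In Day 15 +Fgf, Six3 lay at 320.9, 307.1 and 273.1 CPM, above every library of the other groups. In Day 12 +Wnt it lay at 79.63, 74.61 and 66.2 CPM, and in Day 15 +Wnt at 30.34, 28.64 and 29.53 CPM. The last of these, 15.9% of the Day 10 mean, was a smaller loss than that of Rax.

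On the log2 scale, Six6 had the widest range of the 5 genes. It lay at 273.2, 317.8 and 284.5 CPM at Day 10 and at 334.7, 287.1 and 328.7 CPM in Day 12 +Fgf, a pair whose libraries overlapped and which did not pass the test (log2 difference 0.12, 95% interval -0.17 to 0.40, limma adjusted p = 0.476). In Day 15 +Fgf it lay lower, at 231.9, 215.9 and 226.2 CPM. By Day 12 +Wnt it had come down to 29.37, 31.81 and 26.61 CPM. In Day 15 +Wnt it lay at 1.489, 2.163 and 1.122 CPM, which rest on 16 to 29 reads per library and equal 0.545% of the Day 10 mean. No library of a +Wnt group overlapped with one of Day 10 or of a +Fgf group.

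Lhx2 was highest at Day 10 and lower in all 4 stimulated groups. It lay at 471.2, 495.4 and 465 CPM at Day 10, at 325.1, 278.2 and 305.4 CPM in Day 12 +Fgf and at 275.2, 273.5 and 270.4 CPM in Day 12 +Wnt. In Day 15 +Fgf it lay at 256.3, 272.5 and 299 CPM, and in Day 15 +Wnt at 217.7, 215.4 and 257.2 CPM. The Day 10 libraries stood apart from all others, and the stimulated groups partly overlapped among themselves. Among neighbours in the order of level, Day 12 +Fgf and Day 15 +Fgf did not differ beyond their spread (adjusted p = 0.109), nor did Day 15 +Fgf and Day 12 +Wnt (limma adjusted p = 0.89).

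Pax6 was lower in both +Wnt groups and lay within a narrow range in the others. It lay at 513.7, 621.3 and 539.8 CPM at Day 10, at 620.3, 601.5 and 619.8 CPM in Day 12 +Fgf and at 584.5, 608.1 and 591.8 CPM in Day 15 +Fgf. In Day 12 +Wnt it lay at 330.4, 337.4 and 315.8 CPM, and in Day 15 +Wnt at 252.4, 238.4 and 243.8 CPM. The 9 Day 10 and +Fgf libraries overlapped between groups, and all 6 +Wnt libraries lay below them. The Day 15 +Wnt mean was 43.9% of the Day 10 mean, close to the 48.2% of Lhx2 and far above the 3.30% of Rax.

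Levels of different genes can be set against each other only per length, and here that order depended on which transcript was counted. Divided by the union of annotated exons, the Day 10 levels were 108.6 CPM per kilobase for Lhx2, 72.8 for Six6, 47.74 for Pax6, 34.1 for Six3 and 28.09 for Rax. With the transcript of the deposited accession, a length added after the data were seen, they were 194.6 CPM per kilobase for Pax6, 168 for Lhx2, 98.22 for Rax, 72.8 for Six6 and 50.46 for Six3. No order of abundance among the 5 genes is therefore given.

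Day 12 +Wnt explants were first set against the epithelium at excision. All 5 eye field genes were lower in Day 12 +Wnt than in Day 10 Rx::GFP+, and none of the libraries overlapped, as was so for 64.3% of all genes. In limma on log2(CPM + 0.3), with Benjamini-Hochberg adjustment over all genes tested, 60.2% of all genes passed the threshold of 0.05 in this comparison and 29.6% were called lower. The fitted log2 differences were -3.31 ± 0.135 (SE) for Six6 (adjusted p = 3.37e-11), -1.88 ± 0.0837 for Rax (adjusted p = 7.64e-11) and -1.34 ± 0.0818 for Six3 (adjusted p = 1.52e-09). Lhx2 fell by 0.80 (SE 0.0694, adjusted p = 6.31e-08) and Pax6 fell by 0.76 (SE 0.0544, adjusted p = 7.93e-09) on the same scale. As ratios of the group means, Six6 was at 0.1, Rax at 0.272, Six3 at 0.396, Lhx2 at 0.572 and Pax6 at 0.587 of its Day 10 level.

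Between Day 10 and Day 12 +Fgf the differences were smaller and ran in both directions. Of the 5 genes, 3 passed the test in Day 12 +Fgf against Day 10, a comparison in which 55.7% of all genes did. Rax rose by 0.43 (SE 0.0837, adjusted p = 0.000373) and Lhx2 fell by 0.66 (SE 0.0694, adjusted p = 8.13e-07) on the log2 scale in limma. Pax6 rose by 0.14 (SE 0.0544, adjusted p = 0.0362), but its libraries overlapped and the call was lost on recovered reads with edgeR (log2 difference 0.118, adjusted p = 0.0795) and with DESeq2 (0.12, adjusted p = 0.0727), and with the RNA integrity number of each library (RIN, from the study) as a covariate in limma (0.153, adjusted p = 0.145). It was also lost without Day 10 replicate 1 (0.084), Day 10 replicate 3 (0.12), Day 12 +Fgf replicate 1 (0.134) or Day 12 +Fgf replicate 3 (0.134). The Six3 difference, not called with all libraries, passed without Day 10 replicate 2 (0.237) and without Day 12 +Fgf replicate 2 (0.253). Both comparisons with Day 10 share the Day 10 libraries.

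**Figure D2:**
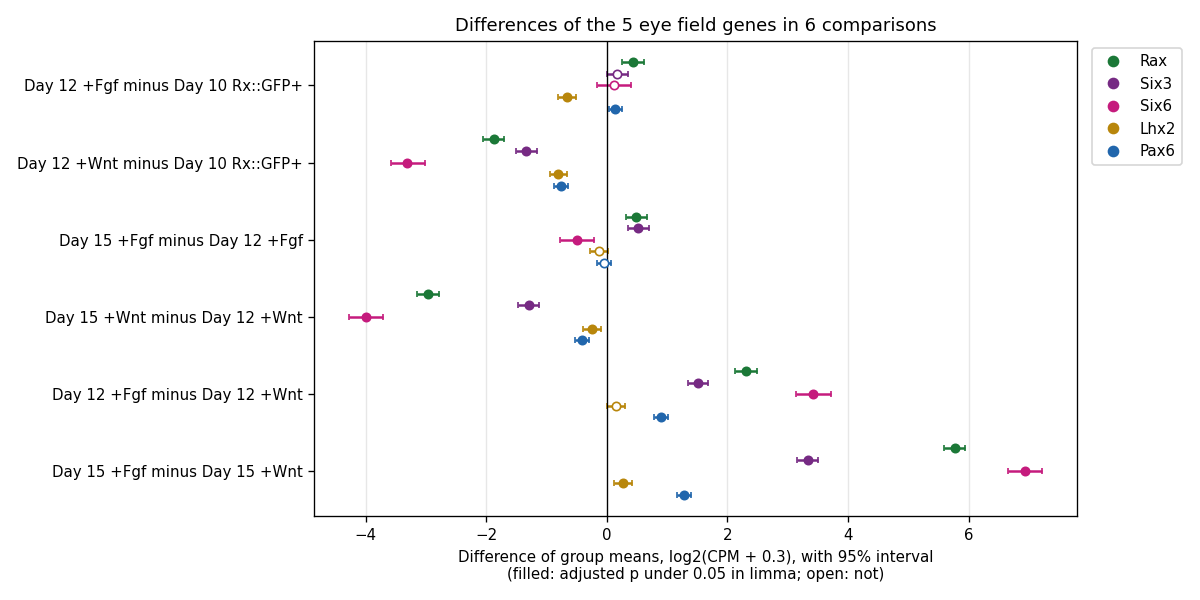
Differences of group means on the log2(CPM + 0.3) scale for the 5 genes in 6 comparisons, with 95% intervals from limma. Filled points passed an adjusted p of 0.05. Within each comparison that involves a +Wnt group, Six6 and then Rax lie farthest from 0. Lhx2 lies within 1 log2 unit of 0 throughout.

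Explants of each medium were then compared between their sampling days, Day 12 and Day 15. In the +Wnt explants all 5 genes fell further, where 68.0% of all genes passed and 35.5% were called lower. On the log2 scale, Six6 differed by -4.00 (SE 0.135), Rax by -2.97 (SE 0.0837) and Six3 by -1.30 (SE 0.0818), all with an adjusted p below that of Pax6 (-0.42, SE 0.0544, adjusted p = 3.42e-06) in limma. Lhx2 differed by -0.25 (SE 0.0694, adjusted p = 0.00411), a call that was lost with quantile normalization (-0.077). For Rax and Six6, the step from Day 12 to Day 15 was larger on the log2 scale than that from Day 10 to Day 12, whereas for Lhx2 and Pax6 it was smaller. These values are given side by side without a test, because both steps share the Day 12 +Wnt libraries.

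In the +Fgf explants, 3 of the 5 genes passed between Day 12 and Day 15, against 57.1% of all genes. Rax rose by 0.49 (SE 0.0837, limma adjusted p = 0.000105) and Six3 by 0.52 (SE 0.0818, adjusted p = 4.51e-05), while Six6 fell by 0.49 (SE 0.135, adjusted p = 0.00507). Lhx2 (log2 difference -0.13, 95% interval -0.28 to 0.01) and Pax6 (-0.05, 95% interval -0.16 to 0.07) did not pass. Without Day 12 +Fgf replicate 2 or Day 15 +Fgf replicate 3 the Lhx2 difference passed, at -0.195 and -0.194. The RIN was lower in every Day 15 +Fgf library than in every Day 12 +Fgf library. With the RIN as a covariate in limma, 0 of the 5 genes passed and 1 had an unadjusted p under 0.05, with log2 differences of 0.143 for Rax (adjusted p = 0.504), 0.327 for Six3 (adjusted p = 0.151) and -0.736 for Six6 (adjusted p = 0.0573). In that fit, 25.9% of all genes passed. On recovered reads, without that covariate, edgeR and DESeq2 each called 3 of the 5, against 56.6% and 53.8% of all genes.

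Over the full span from Day 10 to Day 15, 4 genes passed in the +Fgf explants, against 72.6% of all genes. Rax and Six3 were higher, by 0.92 and 0.69 on the log2 scale, and Lhx2 was lower by a log2 difference of -0.79. Six6 fell by 0.38 (SE 0.135, limma adjusted p = 0.0196), a call lost without Day 10 replicate 2 (-0.312) or without Day 15 +Fgf replicate 2 (-0.346). Pax6 did not pass (0.10, 95% interval -0.02 to 0.21), although it did without Day 10 replicate 2 (0.176) and with quantile normalization (0.235, adjusted p = 0.000691). In the +Wnt explants all 5 were lower than at Day 10, against 79.8% of all genes called and 40.2% called lower. The log2 differences there were -7.30 for Six6, -4.85 for Rax, -2.64 for Six3, -1.18 for Pax6 and -1.06 for Lhx2, with limma adjusted p from 1.57e-16 to 3.44e-10.

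The media were also compared at the same day. At Day 12, 4 of the 5 genes were higher in +Fgf than in +Wnt, where 51.5% of all genes passed and 26.3% were called higher. Six6 was higher by 3.42 (SE 0.135), Rax by 2.31 (SE 0.0837), Six3 by 1.51 (SE 0.0818) and Pax6 by 0.91 (SE 0.0544) on the log2 scale, with adjusted p from 1.92e-12 to 6.68e-10 in limma. Lhx2 was not called (log2 difference 0.15, 95% interval -9.01e-05 to 0.29, limma adjusted p = 0.0883), although its Day 12 +Fgf libraries all lay above its Day 12 +Wnt libraries. That is no rare arrangement in these data, since the libraries of these groups did not overlap for 60.4% of all genes. The Lhx2 difference passed without Day 12 +Fgf replicate 2 (0.207) and without Day 15 +Wnt replicate 3 (0.147).

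At Day 15 all 5 genes were higher in +Fgf than in +Wnt, against 68.7% of all genes called and 38.0% called higher. Group means differed 141-fold for Six6 (224.7 against 1.59 CPM), 57.5-fold for Rax (311.4 against 5.41 CPM) and 10.2-fold for Six3 (300.4 against 29.5 CPM). Pax6 was 2.43-fold higher (594.8 against 244.9 CPM) and Lhx2 was 1.20-fold higher (275.9 against 230.1 CPM). The limma adjusted p of the 4 genes other than Lhx2 ran from 9.28e-18 to 3.57e-12. The Lhx2 libraries overlapped, since 257.2 CPM in Day 15 +Wnt replicate 3 exceeded 256.3 CPM in Day 15 +Fgf replicate 1. Its difference (log2 0.26, SE 0.0694, limma adjusted p = 0.00292) was no longer called with quantile normalization (0.104). The change from Day 12 to Day 15 itself differed between the treatments, as an interaction in limma, for 4 of the 5 genes, all with the higher value in +Fgf, against 47.9% of all genes called and 27.0% called higher. It was not called for Lhx2 (log2 0.12, 95% interval -0.09 to 0.32, adjusted p = 0.347), although it was with the RIN as a covariate (0.412, adjusted p = 0.0284).

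The summed CPM of the 5 genes, in which genes with long transcripts weigh more, lay in one range at Day 10 and in both +Fgf groups, while its make-up shifted. The sum was 1677 ± 101 CPM at Day 10, 1665 ± 74.2 CPM in Day 12 +Fgf and 1707 ± 25.4 in Day 15 +Fgf (SD, n = 3 each). In Day 12 +Wnt it was 748.3 ± 26.0 CPM and in Day 15 +Wnt 511.5 ± 23.8 CPM. Lhx2 and Pax6 together made up most of what was left there, with shares of 44.92% ± 2.64 for Lhx2 and 47.93% ± 2.24 for Pax6 in Day 15 +Wnt. At Day 10 the same shares were 28.48% ± 0.824 and 33.23% ± 1.37. Rax went the other way, from 9.83% ± 1.04 of the sum at Day 10 to 18.23% ± 1.41 in Day 15 +Fgf and 1.06% ± 0.0846 in Day 15 +Wnt.

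**Figure D3:**
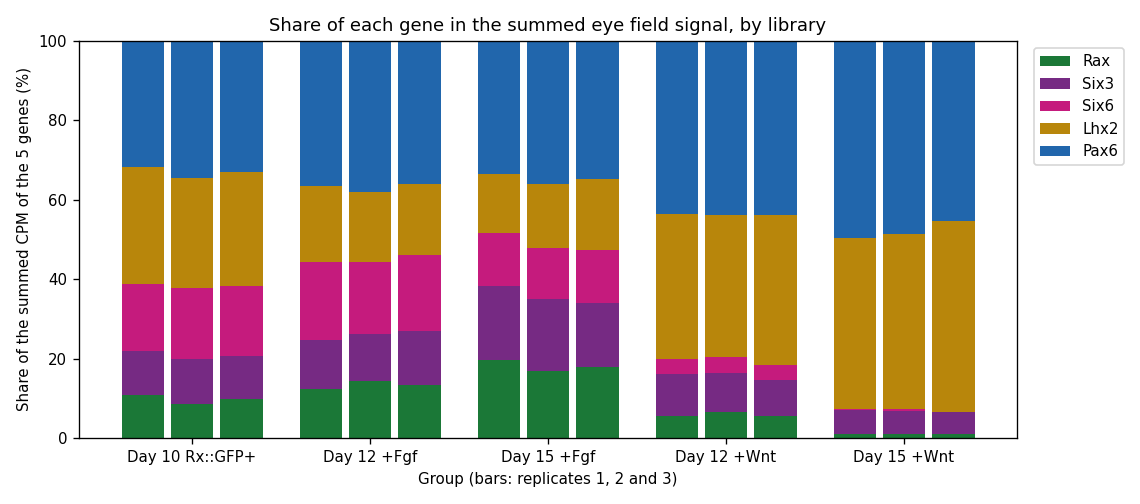
Share of each gene in the summed CPM of the 5 genes, as stacked bars from 0 to 100% for each of the 15 libraries. Replicates of a group look alike, and Lhx2 and Pax6 fill over 90% of the bar in each Day 15 +Wnt library.

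Ratios of the related genes Six3 and Six6, in which length cancels between groups, moved in both media. The ratio of Six3 to Six6 was 0.654, 0.637 and 0.619 in the Day 10 libraries and 0.633, 0.652 and 0.7 in Day 12 +Fgf. It was 1.38, 1.42 and 1.21 in Day 15 +Fgf, 2.71, 2.35 and 2.49 in Day 12 +Wnt, and 20.4, 13.2 and 26.3 in Day 15 +Wnt. Day 10 and Day 12 +Fgf overlapped in this ratio, and each of the other groups stood apart. Lhx2 against Pax6 behaved in another way, since its ratio was 0.859 ± 0.0600 at Day 10, 0.833 ± 0.0228 in Day 12 +Wnt and 0.940 ± 0.101 in Day 15 +Wnt, but 0.493 ± 0.0309 and 0.464 ± 0.0361 in Day 12 and Day 15 +Fgf.

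The promoter stretches of Six3, Six6 and Pax6 are shown because a window of each holds the CCAAT core. This core is a common promoter element bound by the factor NF-Y. The part of the core in the levels of the 5 genes was not tested. RefSeq windows on GRCm38.p6 (the assembly also called mm10), each from 250 bases before to 50 bases after a start, were at hand for 4 of the 5 genes, 1 each for Six3 and Six6 and a pair each for Lhx2 and Pax6. Capitals mark the longest run that the Six3 and Six6 windows share, 11 bases, and the CCAAT core of Pax6. All stretches run 5′ to 3′ on the plus strand, which is the strand of the genes.
Six6, chr12:72939802-72939831, from 80 to 51 bases before the start: gtcgcagccTTGATTGGCAGagcagcctag
Six3, chr17:85620672-85620701, from 162 to 133 bases before the start: ttctcagtaTTGATTGGCAGggctgacagt
Pax6, chr2:105668830-105668859, from 66 to 37 bases before the start: cgcgcccggcaaCCAATgagggcattgctg

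The shared run holds the CCAAT core on the opposite strand (ATTGG). In either orientation it occurred in 12 of 32851 windows (0.0365%), and it was the longest run among the 13 pairs of windows compared between different genes, so it was picked for its length. The Six3 window held the core at 3 places, the Six6 window at 2 and the first Pax6 window at 1, and neither Lhx2 window held it. The core occurs in 37.4% of all windows, counting both strands. The homeodomain core TAATTA (in 5.29% of windows), the Otx core TAATCC (7.06%) and the Tcf/Lef cores CTTTGAT (3.73%) and CTTTGAA (5.14%), searched on both strands, were in none of the 6 windows. These matches describe letters only.

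The positions of the genes below are those of the GENCODE vM21 annotation of GRCm38 (mm10). Six6 (chr12:72939892-72944899) and Six3 (chr17:85613608-85629302) lie on the plus strand, as do Lhx2 (chr2:38339281-38369733) and Pax6 (chr2:105668900-105697364), and Rax lies on the minus strand of chromosome 18. Several have annotated partners on the opposite strand. The strand setting of the read counting is not given in the sources used here, so reads from overlapping exons of such partners cannot be told apart. Six3os1, a non-coding gene, shares 106 bp of exon with Six3, and 4930447C04Rik, a protein-coding gene, shares 192 bp with Six6. Gm28528 shares 168 bp with Six3 and Raxos1 shares 1604 bp with Rax, but neither symbol was among the entries analysed here.

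Six3os1 moved with Six3 across the groups. It lay at 241.7, 258.7 and 238.6 CPM at Day 10, at 401.8, 321.4 and 448.7 CPM in Day 12 +Fgf and at 505.2, 467.4 and 399.5 CPM in Day 15 +Fgf. In Day 12 +Wnt it lay at 111.4, 106.3 and 99.03 CPM, and in Day 15 +Wnt at 32.01, 31.47 and 28.27 CPM. Unlike the Six3 libraries, those of Six3os1 did not overlap between Day 12 +Fgf and Day 10, where it rose by 0.65 (SE 0.0997, limma adjusted p = 4.1e-05). The ratio of Six3os1 to Six3 accordingly went from 1.33 ± 0.0441 at Day 10 to 1.85 ± 0.122 in Day 12 +Fgf and 1.04 ± 0.0726 in Day 15 +Wnt (SD, n = 3). By contrast, 4930447C04Rik averaged 3.88 CPM at Day 10, where Six6 averaged 291.8 CPM, and 0.144 CPM in Day 15 +Wnt, where Six6 averaged 1.59 CPM.

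**Figure D4:**
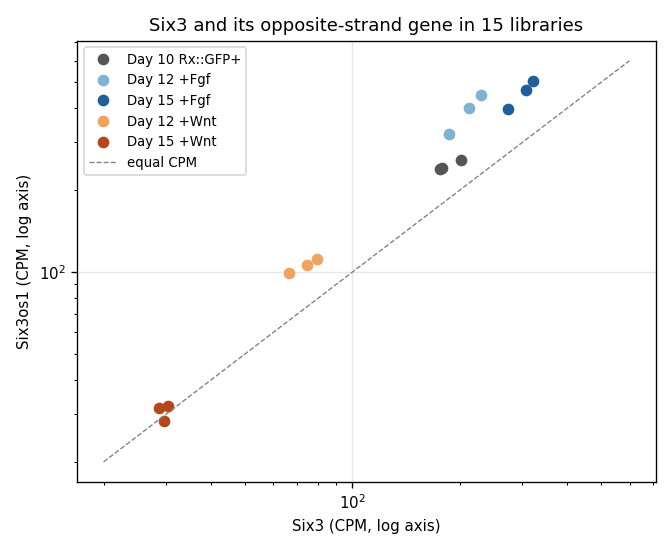
Six3os1 against Six3 in deposited CPM (both axes log), 1 point per library, with a dashed line of equal CPM. Points of all groups but Day 15 +Wnt lie above the line, and the Day 15 +Wnt points lie around it near 30 CPM.

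Relatives of Six3 and Six6 lie close to the listed pair. Six2, 54975 bp from Six3, rose from 0.848 CPM at Day 10 to 5.72 CPM in Day 15 +Fgf (log2 difference 2.39, limma adjusted p = 5.43e-07). Six4, 154710 bp from Six6, was lower in Day 15 +Fgf than in Day 15 +Wnt by -0.54 on the log2 scale (3.55 against 5.16 CPM), a call lost with quantile normalization (-0.149) and with the RIN as a covariate (-0.226). Six2 and Six5 were called higher in the same comparison. Six2 averaged 5.72 against 0.346 CPM (log2 difference 3.22, limma adjusted p = 1.66e-08), and Six5 averaged 26.3 against 18.5 CPM (log2 difference 0.50, limma adjusted p = 3.8e-05). In Day 12 +Wnt against Day 10, Six5 fell by 0.94, and Six4 did not pass (log2 difference -0.38, limma adjusted p = 0.0697). Six2, on 3 to 13 reads per library, differed by -0.76 in limma (adjusted p = 0.0223), a call lost with DESeq2 (-1.11, adjusted p = 0.0555) and with the RIN as a covariate (-0.674, adjusted p = 0.133).

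Over the 15 libraries, Rax, Six3, Six6 and Pax6 varied together on the log2 scale, with Pearson r between 0.962 and 0.989 for each pair. Lhx2 correlated less with each of the other four, between 0.517 and 0.648. The libraries share their group, so these values describe mainly the 5 group means. Within groups, with the group means taken out, r ranged from -0.326 to 0.59. The genes most like each member, among 11334 genes with a mean of at least 5 CPM, were Six3os1, Tox2 and Six3 for Rax (r = 0.991, 0.99 and 0.989). Usp44, Six3os1 and Fzd5 were most like Six3 (r = 0.996, 0.992 and 0.99), and Hmx1, Crhbp and Ckap4 were most like Six6 (r = 0.995, 0.994 and 0.993). Fzd5, a Wnt receptor, also led the list for Pax6 (r = 0.99), and the list for Lhx2 was led by the RNA methyltransferase gene Nsun5 (r = 0.978). Fzd5 averaged 176 CPM at Day 10, 259 CPM in Day 15 +Fgf and 4.6 in Day 15 +Wnt. Hmx1, a homeobox gene of the eye, averaged 84.8 CPM at Day 10, 75.2 CPM in Day 15 +Fgf and 3.33 in Day 15 +Wnt.

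The other factors of the eye field network split between both patterns. Tbx3, a T-box repressor, lay at 30.8, 23.47 and 29.65 CPM at Day 10, at 4.466, 2.645 and 2.847 CPM in Day 12 +Wnt and at 0.7444, 1.864 and 2.034 CPM in Day 15 +Wnt. In Day 15 +Fgf it lay at 77.65, 63.19 and 55.83 CPM. Its relative Tbx2 averaged 139.7 CPM at Day 10, 29.6 CPM in Day 12 +Wnt and 21.5 in Day 15 +Wnt. Both T-box genes thus fell from Day 10 to Day 12 +Wnt, by 2.99 (SE 0.252) for Tbx3 and by 2.23 (SE 0.169) for Tbx2 in limma. Otx2, which RPE and forebrain also use, rose in Day 12 +Wnt and fell in Day 12 +Fgf, with 248 ± 1.85 CPM in Day 12 +Wnt and 89.5 ± 13.9 in Day 12 +Fgf against 194.3 ± 21.5 CPM at Day 10. The rise (log2 difference 0.357, limma adjusted p = 0.0027) was lost with the RIN as a covariate (0.278, adjusted p = 0.0596), as was the rise of Nr2e1 below in Day 12 +Fgf (0.578, adjusted p = 0.0698). Nr2e1 (Tlx), a nuclear receptor of neural progenitors, was higher in both Day 12 groups, with 48.2 CPM in +Fgf and 45.5 CPM in +Wnt against 24.7 CPM at Day 10. At Day 15 it lay at 88.4 CPM in +Fgf and 18.0 CPM in +Wnt. Of these 4 genes, 2 were called higher and 2 lower in Day 12 +Wnt than at Day 10, and 1 and 2 with that covariate. Without it, 60.2% of all genes were called in that comparison and 29.6% were called lower, and with it 50.1% were called.

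**Figure D5:**
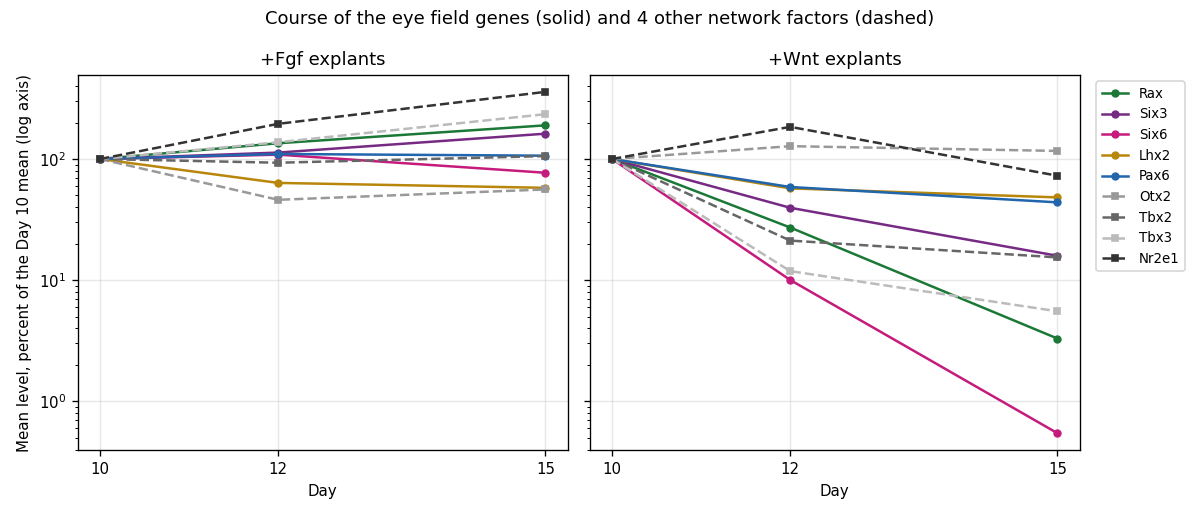
Mean level as percent of the Day 10 mean (log axis) against day, with +Fgf explants on the left and +Wnt explants on the right. Solid lines are the 5 listed genes and dashed lines are Otx2, Tbx2, Tbx3 and Nr2e1. On the right, Six6 and Rax end lowest, at 0.545% and 3.30%, and Otx2 ends above 100%.

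Relatives of Pax6 and Lhx2 were called in both directions. Of 8 other Pax genes, 4 were tested, and in Day 15 +Fgf against Day 15 +Wnt 2 were called higher and 2 lower. In that comparison 68.7% of all genes were called and 38.0% were called higher. Pax2, a gene of the optic stalk and ventral optic cup, averaged 34.7 CPM in Day 15 +Fgf and 0.681 in Day 15 +Wnt (log2 difference 5.21, limma adjusted p = 1.87e-10). Pax3, a dorsal neural tube gene, ran in the other direction, with 1.27 CPM in Day 15 +Fgf and 7.63 in Day 15 +Wnt. Of 11 other LIM homeobox genes, 9 were tested, and 4 were called higher and 5 lower in Day 15 +Fgf. Isl1, which retinal ganglion cells express, averaged 108.8 CPM in Day 15 +Fgf and 0.644 in Day 15 +Wnt, whereas Lmx1a, a dorsal midline gene, averaged 1.24 and 23.7 CPM.

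Genes for partners of Six3 and Six6 or of LIM-homeodomain proteins were called in both directions. The 12 such partners of the Six3 kind were TLE co-repressors, Eya and Dach proteins and geminin. Of these, 7 were called higher and 3 lower in Day 15 +Fgf than in Day 15 +Wnt, and 6 and 3 with the RIN as a covariate. In that comparison 68.7% of all genes were called and 38.0% were called higher. With the covariate, 46.0% of all genes were called. The median log2 difference was 0.262, beside 0.0514 over all genes. The Eya co-activators diverged. Eya2 averaged 76.1 CPM in Day 15 +Fgf and 6.99 in Day 15 +Wnt (log2 difference 3.39, limma adjusted p = 4.34e-14). Eya1 averaged 8.61 and 41.6 CPM in the same groups (log2 difference -2.26, limma adjusted p = 1.43e-10). Geminin (Gmnn), a replication inhibitor that Six3 binds, averaged 70.3 CPM in Day 15 +Fgf and 31.9 in Day 15 +Wnt. Among 10 partners of LIM-homeodomain proteins, 3 were called higher and 5 lower in Day 15 +Fgf, and 3 and 4 with that covariate. Lmo2, an LMO adaptor that competes with LIM-homeodomain proteins for Ldb co-factors, averaged 8.73 CPM there and 42.8 CPM in Day 15 +Wnt.

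Of 10 genes reported to be regulated by eye field factors, 9 were tested. In Day 15 +Fgf against Day 15 +Wnt, 6 were called higher and 2 lower, against 68.7% of all genes called and 38.0% called higher. The median log2 difference was 1.74, beside 0.0514 over all genes. Atoh7, needed for retinal ganglion cells, averaged 102.2 CPM in Day 15 +Fgf and was at no more than 3 reads in each Day 15 +Wnt library. Crx, of photoreceptor precursors, averaged 102.6 and 2.53 CPM in these groups. Wnt8b, which Six3 represses in the forebrain, was lower in Day 15 +Fgf (0.8112, 4.396 and 8.339 CPM) than in Day 15 +Wnt (89.15, 96.5 and 74.36 CPM). Mitf, singled out after its values were seen because RPE cells depend on it, lay at 18.6 ± 0.922 CPM in Day 15 +Fgf and at 182.5 ± 12.1 CPM in Day 15 +Wnt. At Day 10 and in Day 12 +Wnt it averaged 126.2 and 131.5 CPM, and that pair did not pass the test (log2 difference 0.06, limma adjusted p = 0.5).

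Of 17 other transcription factor genes of the early forebrain and optic region, 15 were tested. In Day 15 +Fgf against Day 15 +Wnt, 8 were called higher and 6 lower, against 68.7% of all genes called and 38.0% called higher. The median log2 difference was 0.39, beside 0.0514 over all genes. With the RIN as a covariate, 8 were called higher and 1 lower, against 46.0% of all genes called. Vax2, a ventral optic cup gene, was higher by 3.32 on the log2 scale (limma adjusted p = 1.95e-09) and the progenitor gene Hes5 by 2.12. Otx1, a relative of Otx2, was lower by -2.21. In Day 12 +Wnt against Day 10, 6 genes of the list were called higher, 6 lower and 3 did not pass. There, 60.2% of all genes passed and 29.6% were called lower. With the RIN as a covariate, 3 genes of the list were called higher and 6 lower, against 50.1% of all genes called.

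Markers of other cell types moved with the same comparisons, and their part in the levels of the 5 genes was not tested. All 9 markers of retinal ganglion cells and early neurons were called higher in Day 15 +Fgf than in Day 12 +Fgf. Isl1 and Stmn2 are among them, and 57.1% of all genes were called in that comparison. The sum of the 9 markers went from between 161.3 and 175.3 CPM to between 1258 and 1478 CPM. With the RIN as a covariate, 8 of the 9 were called higher, against 25.9% of all genes called. The call of Isl1 was lost there (1.29, limma adjusted p = 0.107). In Day 15 +Wnt that sum lay between 519.1 and 634.2 CPM, with Atoh7 at no more than 3 reads. The 4 choroid plexus markers summed to between 826.6 and 1307 CPM in Day 15 +Wnt, against 31.27 to 154.8 CPM in Day 15 +Fgf. The 3 that were tested were called lower in Day 15 +Fgf than in Day 15 +Wnt, where 68.7% of all genes were called and 38.0% called higher. With the RIN as a covariate, 2 of the 3 were called lower, against 46.0% of all genes called. The Aqp1 call was lost there (-0.656, limma adjusted p = 0.402). The 8 markers of mesenchyme and neural crest summed to between 400.3 and 471.3 CPM in Day 15 +Wnt, against 116.3 to 148.5 CPM in Day 15 +Fgf. Among them, the neural crest markers Sox10 and Foxd3 were at no more than 3 reads in each Day 15 +Wnt library. The 7 markers of forebrain outside the eye had their highest sums in Day 15 +Wnt. There 4 of the 7 were at 1 CPM or more in each library, as at Day 10. Of these markers 5 were tested. In Day 15 +Fgf against Day 15 +Wnt, 1 was called higher and 3 lower, against 68.7% of all genes called and 38.0% called higher. With the RIN as a covariate, 2 were called higher and 0 lower, against 46.0% of all genes called. The 5 markers of lens and surface ectoderm summed to at most 7.005 CPM in any library, and Krt14 was at no more than 3 reads throughout.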

How the data were processed

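RNA-Seq of poly(A) RNA (TruSeq Stranded mRNA kit) was analysed in 15 libraries, 5 groups of 3, grouped by their labels. The authors made the deposited table with TopHat2 2.0.8b, Cufflinks 2.1.1 and edgeR 3.2.4 on mm10, per the submitters' processing notes (with no order given there). The deposited values are a normalized signal, which the authors made by scaling read counts to library size, called CPM here, with column sums of 936418 to 1075448. Whole reads could be recovered for 100% of non-zero values (within 0.01 reads), and these gave the depth of 12556998 to 16175450 reads. Values were tested as log2(CPM + 0.3) with limma 3.58.1 (trend, all 15 libraries in 1 fit) after a filter of 1 CPM in 3 libraries, at an adjusted p of 0.05, and on recovered reads with edgeR 4.0.16 and DESeq2 1.42.0. The replicates are labelled as separate samples in biological triplicate. The members and lists were chosen with earlier results of these data known. Named beside the 5 genes were the 5 genes most like each over the libraries, annotated neighbours within 200 kb, and up to 4 genes of each list with the largest difference. Cell types are named from marker lists. Some genes of these lists are not reported here and were left out of the counts and sums given for them. The script was tested on simulated data. Alternatives were other pseudocounts, filters and scalings, RIN as a covariate, a replicate block, a fit of only the groups compared, and leaving out each library.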

Additional observations from a re-analysis of the deposited data

Results flagged for a closer look

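The change from Day 12 to Day 15 differed between the treatments for 4 of the 5 genes, by a test of the difference itself (interaction term in limma, +Fgf change minus +Wnt change on the log2 scale). It was 3.51 for Six6 (SE 0.191, adjusted p = 9.47e-10), 3.46 for Rax (SE 0.118, adjusted p = 1.03e-11), 1.82 for Six3 (adjusted p = 5.09e-09) and 0.37 for Pax6 (adjusted p = 0.000759). Over all genes, 47.9% were called in this test and 27.0% were called higher. For Rax and Six3 the level rose in the +Fgf explants and fell in the +Wnt explants. Six6 fell in both, by 0.49 and by 4.00, and Pax6 was called only in the +Wnt explants, where it fell by 0.42. The changes of Rax, Six3 and Six6 in the +Fgf explants were not called with the RIN as a covariate. The sum of RPE markers rose over the same interval in the +Wnt explants, from between 2402 and 2954 CPM to between 7056 and 9054 CPM, and its part in these differences was not tested. With 3 libraries per group, no search for a single deviating library was made.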

How the results depend on the processing

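Across 1215 recomputed differences of the 5 genes, 1183 kept their direction and their side of the threshold, 19 lost a call, 11 gained one and 2 changed sign. Many of these fits left the difference itself unchanged by design, such as those without a library of a group not compared. The replicate block and the fit of only the groups compared did so too. In such fits only the spread and the adjusted p could move, so the tally is no measure of stability. With the RIN as a covariate, the count of the 5 genes called between Day 12 and Day 15 +Fgf went from 3 to 0. Over all genes, the share called went from 57.1% to 25.9%. Lhx2 changed sign there with that covariate (0.155 against -0.135, neither called), as did Pax6 with quantile normalization (0.012 against -0.0455, neither called). The cause was not tested. Quantile normalization also ended the Six6 call between Day 15 +Fgf and Day 10 (-0.239), and it moved the median of all genes in Day 15 +Wnt against Day 10 to -0.107 from -0.0048, far less than the differences of any of the 5 genes there. The fit with a replicate block gave the same counts of genes called (3, 5, 3, 5, 4, 5, 4, 5 and 4 over the 9 comparisons) and changed no call of the 5 genes. The deviations of same-numbered libraries from their group means correlated between -0.253 and 0.245, with 7 of 30 pairs over 0.1. Those of differently numbered libraries correlated between -0.334 and 0.292, with 14 of 60 pairs over 0.1. Deviations within a group of 3 sum to 0, so these values cannot decide whether the numbers pair the samples. Six6 in Day 15 +Wnt rests on 16 to 29 reads per library, which limits its precision there. Of the 5 genes most like each member by Pearson r, between 0 and 2 stayed among the first 5 when Spearman rho or the 5 group means were used.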
